A study of Mus musculus with 23 samples.

Results

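The genes described here are those with which a cell copies its DNA. The list holds 48 genes of origin licensing, the replication fork, nucleotide supply and the control of entry into S phase, and its members were taken by gene name. Of these 48 genes, 44 had an array probe set of their own among the 18820 genes measured, and 4 (Gins2, Rfc4, Tyms and Ccne2) were seen only through a probe set that a neighbouring or related gene shares. RNA came from the scraped mucosa of the colon of 23 male mice, proximal and distal parts pooled for each mouse, and each mouse had 1 Affymetrix whole-transcript array, all of them on 1 plate. The groups were 6 PPARα knockout (KO) mice on the heme diet, 6 KO mice on the control diet, 6 wild-type (WT) mice on the heme diet and 5 WT mice on the control diet. The authors left out 1 further WT control array because of its quality.

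All mice were 7 to 9 weeks old at the start and ate a Westernized high fat diet, which drew 40% of its energy from fat and had 30 µmol of calcium per g. To this the heme diet added 0.5 µmol of heme per g, for 14 days. The KO mice lack the fatty acid receptor PPARα in every tissue and were of strain 129S4/SvJae-Pparatm1Gonz/J, whereas the WT mice were 129S1/SvImJ, and thus genotype and substrain cannot be told apart. The array signal of Ppara was 163 to 238 in KO heme mice, against 344 to 474.5 in WT heme mice, and 240.0 to 378 in KO control mice, against 444 to 560.2 in WT control mice. Whether its probes lie in the disrupted part of the gene was not checked. Signals are linear values of the deposited log2 data, and a signal compares samples for a gene, not a gene with another gene.

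The epithelium of the colon renews itself from crypts, where cells divide in the lower part and differentiate as they move up. Before S phase, the origin recognition complex, Cdc6 and Cdt1 load the MCM helicase on DNA. In S phase, Mcm10, Cdc45 and the GINS complex start the helicase, primase and polymerases copy both strands, and a supply of deoxynucleotides is made. Many of these genes are known targets of E2F factors, which are released when cyclin-dependent kinases act at the border of G1 and S phase. Heme is the iron porphyrin of red meat, and the study asked whether PPARα takes part in the response of the colon to it.

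Sequences of the promoters show letters that several of these genes share. The letters searched were the E2F-type octamers TTTCGCGC, TTTGGCGC, TTTCCCGC and TTTGCCGC, on both strands, in RefSeq windows of assembly GRCm38.p6 from 250 bases before to 50 bases after a start site. Of 27025 genes with a window, 704 (2.6%) held an octamer, and of the 38 replication genes with a window 15 (39.5%) did. In all 4 promoters are shown, which hold the motif more than once (Mcm5, chr8:75109349-75109508, plus strand, and Mcm6, chr1:128359706-128359865, minus strand), once (Orc1, chr4:108579294-108579453, plus strand) or not at all (Rrm2, chr12:24708094-24708253, plus strand, the gene with the largest diet difference of the list). Each stretch ends at the base before the start site and is 160 bases long, so it lies upstream of the gene. Capitals mark the E2F-type octamers, which overlap where a run is longer than 8 letters, and the pentamer CCAAT or its reverse ATTGG.
Mcm5: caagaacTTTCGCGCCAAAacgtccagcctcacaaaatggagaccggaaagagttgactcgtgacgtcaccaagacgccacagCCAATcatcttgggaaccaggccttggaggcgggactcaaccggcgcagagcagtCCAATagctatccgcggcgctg
Mcm6: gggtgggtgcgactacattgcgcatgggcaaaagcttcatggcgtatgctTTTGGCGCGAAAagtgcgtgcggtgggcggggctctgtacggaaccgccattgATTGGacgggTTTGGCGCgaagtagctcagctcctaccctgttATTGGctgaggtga
Orc1: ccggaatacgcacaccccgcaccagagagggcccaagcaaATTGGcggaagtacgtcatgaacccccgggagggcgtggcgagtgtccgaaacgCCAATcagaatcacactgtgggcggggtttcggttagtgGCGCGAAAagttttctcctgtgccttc
Rrm2: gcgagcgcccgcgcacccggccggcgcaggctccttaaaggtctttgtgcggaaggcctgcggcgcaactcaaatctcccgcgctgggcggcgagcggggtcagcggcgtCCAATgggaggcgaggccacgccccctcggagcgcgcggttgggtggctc
A match is a run of letters and not a measured binding site. By role, an octamer was found in 4 of 5 MCM genes with a window, in 3 of 4 licensing genes, in 3 of 5 primase and polymerase genes and in 0 of 5 nucleotide supply genes. No window was at hand for Mcm4, Gmnn, Gins1, Gins2, Rfc2, Prim2, Pole, Ccne2, Ccnd1 and Exo1.

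On the heme diet, a minority of the replication genes was called higher in each genotype and none lower. In KO mice 7 of the 44 genes were called higher and 0 lower, and 42 were higher on heme by fold change alone (47.7% of all genes). The median was 0.33, against -0.01 over all genes. In WT mice 14 of the 44 were called higher and 0 lower, and 43 had a positive fold change (47.4% of all genes), with a median of 0.39 against -0.01 over all genes. A gene is called here at an adjusted p under 0.01 in limma (Benjamini-Hochberg over all 18820 genes) with a mean signal above 20 in at least 1 group compared. Over all genes, 9.23% were called higher and 18.4% called in either direction in KO mice, and 9.6% and 17.9% in WT mice. The share of replication genes called higher was 15.9% in KO mice and 31.8% in WT mice. In such a bulk sample, more dividing cells and more RNA per cell cannot be told apart.

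The number of calls changed when single arrays were left out, and the same fall came from leaving out any of several arrays. In KO mice it was 4 without KO control replicate 1, 2, 5 or 6 or KO heme replicate 1, 2, 4 or 5. It was 12 without KO control replicate 3 and 13 without KO heme replicate 3, or without WT heme replicate 4, which enters through the shared variance. In WT mice it was 6 without WT control replicate 2, and 7 without WT control replicate 1 or WT heme replicate 3. It was 8 without WT heme replicate 1, 5 or 6, 9 without WT control replicate 4, and 27 without WT heme replicate 4. With each array left out, 14.7% to 19.2% of all genes were called in KO mice and 13.7% to 19.1% in WT mice. At an unadjusted p under 0.05, 30 genes passed in KO mice and 35 in WT mice, against 37.9% and 37.2% of all genes.

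Genes called in both genotypes were Mcm10, Gins1, Rrm2, Tk1 and E2f8. These 5 are 71.4% of the genes called in KO mice and 35.7% of those called in WT mice. Another 2 were called in KO mice alone (Mcm7 and Chaf1b), 9 in WT mice alone and 28 in neither. With each array left out in turn, Gins1, Rrm2, Tk1 and E2f8 kept their call in KO mice, and Gmnn, Mcm10, Gins1, Rrm2 and E2f8 kept theirs in WT mice. Calls in a single genotype do not show that the genotypes differ, and the difference itself is tested further down. A role holds only 3 to 7 measured genes, and 18.4% of all genes were called in KO and 17.9% in WT mice. Counts of calls by role therefore describe single genes and do not show that roles differ.

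**Figure D1:**
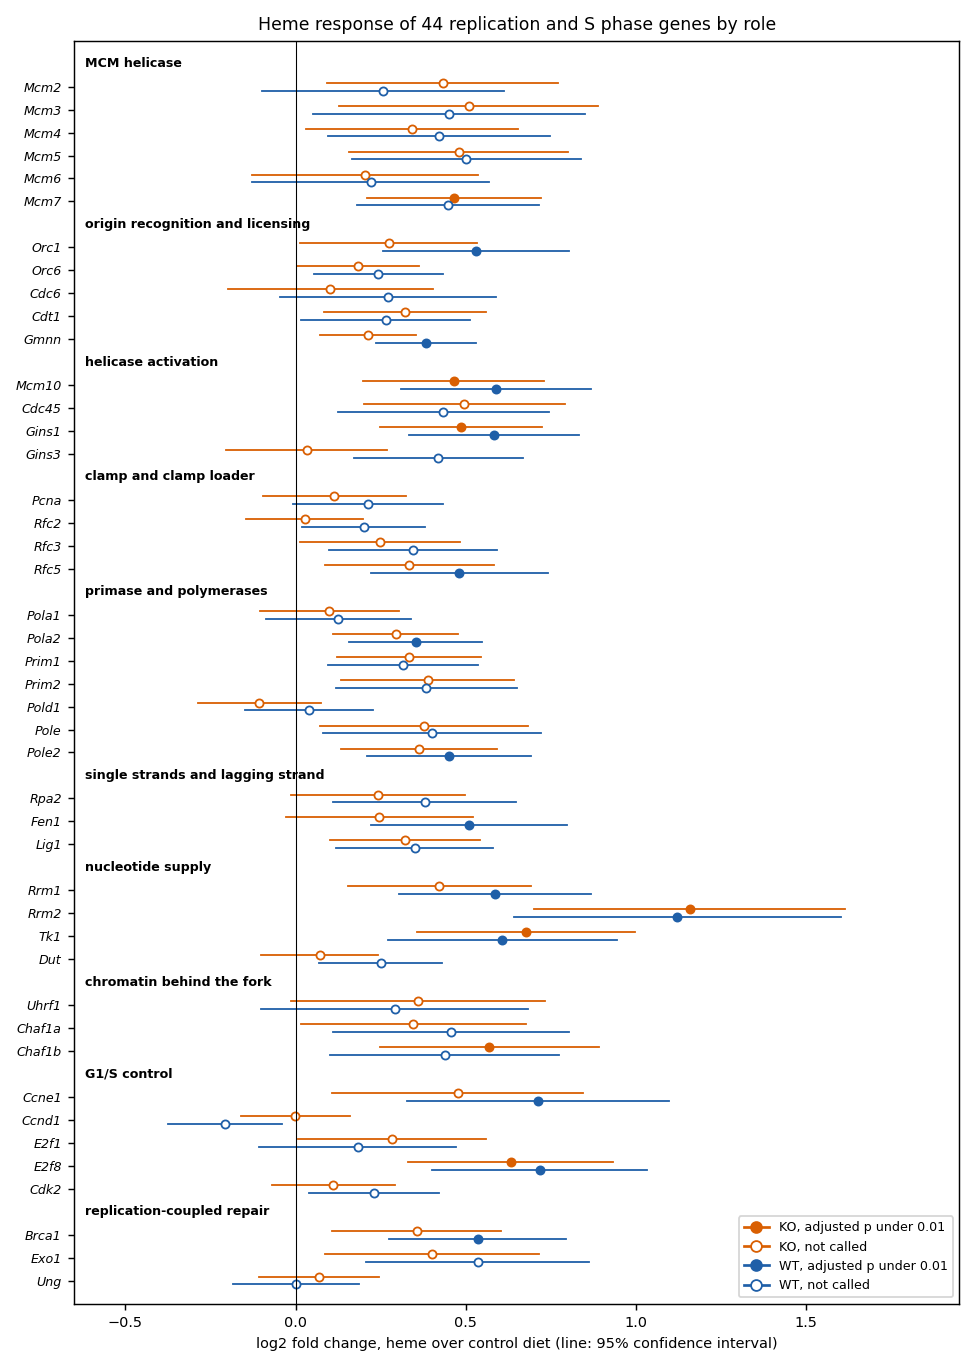
Heme response of the 44 genes with an own probe set, grouped by role. On the x axis is the log2 fold change, heme over control, with its 95% confidence interval, orange for KO and blue for WT mice, and filled points are called. Rrm2 lies farthest to the right in both genotypes (1.16 in KO and 1.12 in WT mice), and most points lie right of 0 with intervals that overlap between genotypes.

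Genes of the nucleotide supply had the largest median difference of all roles, 0.55 in KO and 0.60 in WT mice. Rrm2, the subunit of ribonucleotide reductase whose level follows the cell cycle, had a signal of 159.6 to 346 (median 254) in KO heme mice, against 88.5 to 157 (median 94.8) in KO control mice. In WT mice it was 138 to 425 (median 300.1) on heme, against 122.5, 115, 129.9, 109 and 121 on control. The diets did not overlap in either genotype. Rrm2 was 2.23-fold higher on heme in KO mice (log2 fold change 1.16, SE 0.22, limma adjusted p = 0.000361) and 2.18-fold higher in WT mice (1.12, SE 0.23, adjusted p = 0.000817). In exact permutation tests, two-sided, the values gave p = 0.002165 in KO and p = 0.004329 in WT mice, the smallest that 6 against 6 and 6 against 5 mice allow.

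Tk1, the thymidine kinase that salvages thymidine for DNA, had a signal of 246 to 413.5 (median 307) in KO heme mice, against 159.8 to 232 (median 196) in KO control mice. The WT heme mice ranged from 198 to 465 (median 360.2), against 205, 196, 252, 214 and 237 in WT control mice. The diets did not overlap in KO mice, whereas 1 WT heme mouse, replicate 4, lay within the WT control mice. Tk1 was higher by 0.68 on the log2 scale in KO mice (SE 0.15, limma adjusted p = 0.00187) and by 0.61 in WT mice (SE 0.16, adjusted p = 0.00672), and the WT call did not survive the loss of 8 of the WT arrays, taken 1 at a time. These were WT control replicates 1, 2, 4 and 5 and WT heme replicates 1, 3, 5 and 6 (highest adjusted p = 0.02196). In a fit over all 35556 probe sets, a second own probe set of Tk1 gave 0.65 in KO and 0.69 in WT mice and was called in both genotypes. In that fit the probe set used above was called in KO mice but not in WT mice (limma adjusted p = 0.01126). A probe set shared with Afmid gave -0.03 in KO and -0.01 in WT mice.

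Rrm1, the large subunit of ribonucleotide reductase, was 422 to 671 (median 525.8) in KO heme mice, against 349 to 504 (median 391) in KO control mice. WT heme mice had 469 to 909 (median 656), against 427, 375, 480.0, 435 and 477 in WT control mice. It was called in WT mice (log2 fold change 0.58, SE 0.14, limma adjusted p = 0.002355) and not in KO mice (0.42, SE 0.13, adjusted p = 0.0167). The WT call was narrowly lost without WT control replicate 2 (adjusted p = 0.01006). Dut, which removes dUTP before it is built into DNA, gave 0.07 in KO mice (adjusted p = 0.591) and 0.25 in WT mice (adjusted p = 0.0345), neither called. Thymidylate synthase, which makes the thymidine nucleotide de novo, was seen only through probe sets shared by Tyms and the pseudogene Tyms-ps. The brighter of these gave 0.52 in KO and 0.57 in WT mice, with adjusted p = 0.00433 and 0.00343 in a fit over all 35556 probe sets.

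**Figure D2:**
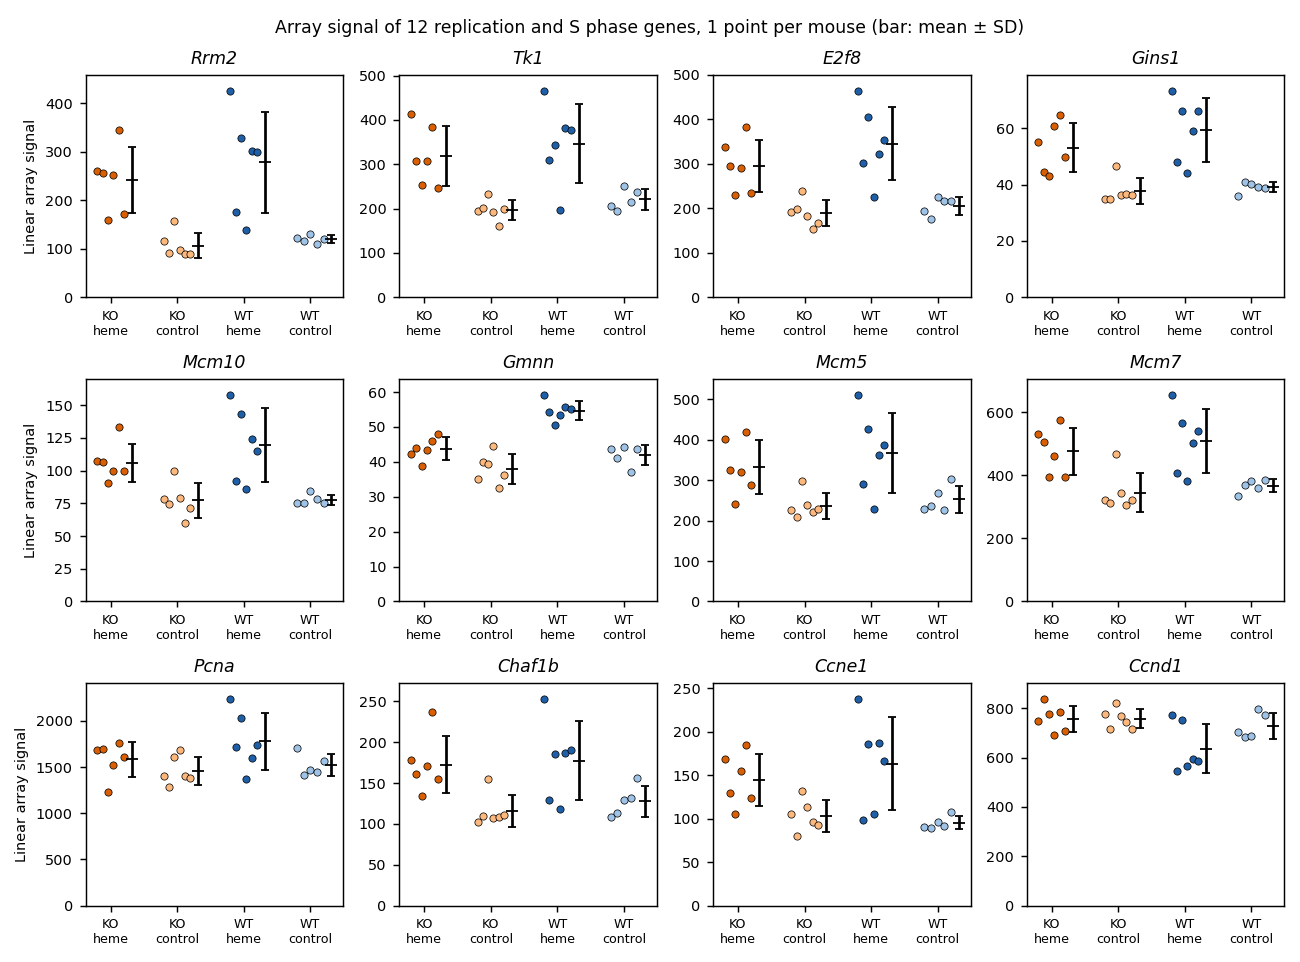
Linear array signal of 12 replication genes, with a point for each mouse and the mean ± SD of each group beside it, in KO heme, KO control, WT heme and WT control mice from left to right. Rrm2 separates the diets in both genotypes, while the Pcna and Ccnd1 points of the diets overlap, and Gmnn is at least 50.6 in the WT heme mice and at most 48.1 in the KO heme mice.

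Genes that start the helicase had medians of 0.48 in KO and 0.51 in WT mice. Gins1, a subunit of the GINS complex that travels with the helicase, had a signal of 43.2 to 64.7 (median 52.5) in KO heme mice, against 34.9 to 46.8 (median 36.4) in KO control mice. In WT heme mice it was 44.15 to 73.3 (median 62.55), against 36.1, 41.0, 40.4, 39.1 and 39.0 in WT control mice, with no overlap. Gins1 was higher by 0.49 in KO mice (SE 0.11, limma adjusted p = 0.0025) and by 0.58 in WT mice (SE 0.12, adjusted p = 0.000843). In KO mice 1 control mouse, replicate 3, lay inside the range of the heme mice.

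Mcm10, which binds the loaded helicase at the start of replication, had a signal of 90.25 to 133 (median 103) in KO heme mice, against 59.9 to 99.95 (median 76.65) in KO control mice. The WT heme mice ranged from 86.2 to 157.5 (median 119), against 75.5, 75.05, 84.2, 78.3 and 75.5 in WT control mice. All WT heme mice were above all WT control mice, and KO control replicate 3 was again the exception in KO mice. Mcm10 was higher by 0.46 in KO mice (SE 0.13, limma adjusted p = 0.00837) and by 0.59 in WT mice (SE 0.13, adjusted p = 0.00203). The KO call lies close to the threshold and was lost on leaving out any of 16 single arrays (highest adjusted p = 0.02775, without KO heme replicate 5). It held without KO control replicate 3, KO heme replicate 3, WT control replicate 3 or WT heme replicates 1 to 4.

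Cdc45, which joins MCM and GINS in the active helicase, gave 0.50 in KO mice (adjusted p = 0.0109) and 0.43 in WT mice (adjusted p = 0.0326), neither called. Gins3, another GINS subunit, showed the widest gap between genotypes. Its signal was 48.9 to 72.1 (median 54.7) in KO heme mice, against 50.2 to 66.6 (median 56.2) in KO control mice. In WT mice it was 54.9 to 88.8 (median 74.8) on heme, against 52.0, 53.1, 50.75, 52.7 and 56.8 on control. The log2 fold change was 0.03 in KO mice (SE 0.11, adjusted p = 0.8745) and 0.42 in WT mice (SE 0.12, adjusted p = 0.0107). The probe set shared by Gins2 and Gse1 was called in both genotypes, with 0.43 in KO and 0.41 in WT mice.

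The 6 MCM genes, whose products form the ring that unwinds DNA, were all positive in both genotypes, with log2 fold changes of 0.20 to 0.51 in KO mice and 0.22 to 0.50 in WT mice. Only Mcm7 in KO mice was called (over all genes, 18.4% in KO and 17.9% in WT mice). Its signal was 393 to 573 (median 483) in KO heme mice, against 306 to 467 (median 320.3) in KO control mice. WT heme mice had 380.2 to 653 (median 521), against 335, 370.4, 382, 360.2 and 385 in WT control mice. The difference was 0.47 in KO mice (SE 0.12, limma adjusted p = 0.005985) and 0.45 in WT mice (SE 0.13, adjusted p = 0.0112), so the genotypes lay on either side of the threshold with nearly the same value. The KO call was lost on leaving out any of 9 single arrays, which were KO control replicates 1, 2, 4, 5 and 6 and heme replicates 1, 2, 4 and 5 (highest adjusted p = 0.02006).

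Mcm5, of which the promoter is printed above, was 241.5 to 419 (median 324) in KO heme mice, against 208 to 298 (median 227) in KO control mice. In WT heme mice it was 229 to 510.5 (median 375), against 228, 237, 269, 227 and 304 in WT control mice. Heme and control mice overlapped in both genotypes. Its log2 fold change was 0.48 in KO mice (SE 0.155, adjusted p = 0.0226) and 0.50 in WT mice (SE 0.16, adjusted p = 0.0233). Mcm6, another gene with its promoter printed above, had the smallest values of the 6 genes, 0.20 in KO mice (adjusted p = 0.383) and 0.22 in WT mice (adjusted p = 0.374). Mcm2, Mcm3 and Mcm4 gave 0.43, 0.51 and 0.34 in KO mice and 0.26, 0.45 and 0.42 in WT mice.

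Of the 5 genes of origin recognition and licensing, 0 were called in KO mice (18.4% of all genes) and 2, Orc1 and Gmnn, in WT mice (17.9%). Orc1, the large subunit of the origin recognition complex, was 44.7 to 59.3 (median 53.1) in KO heme mice, against 36.8 to 51.85 (median 42.5) in KO control mice. The WT heme mice ranged from 40.8 to 88.2 (median 61.4), against 39.45, 38.4, 43.9, 40.6 and 45.2 in WT control mice. The difference was 0.27 in KO mice (SE 0.13, adjusted p = 0.113) and 0.53 in WT mice (SE 0.13, adjusted p = 0.00391). The WT call was lost without WT control replicate 1 or 2 or WT heme replicate 3 or 5 (highest adjusted p = 0.01299).

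Gmnn encodes geminin, which holds Cdt1 back so that origins are licensed only once per cycle. It had a signal of 38.8 to 48.1 (median 43.8) in KO heme mice, against 32.4 to 44.6 (median 37.8) in KO control mice. WT heme mice had 50.6 to 59.1 (median 54.7), against 43.75, 41.1, 44.2, 37.1 and 43.75 in WT control mice. Gmnn was higher by 0.38 in WT mice (SE 0.07, limma adjusted p = 0.000299) and by 0.21 in KO mice (SE 0.07, adjusted p = 0.0211), which was not called. Cdt1 itself gave 0.32 in KO mice (adjusted p = 0.0377) and 0.26 in WT mice (adjusted p = 0.109). Cdc6, which loads the helicase with Cdt1, gave 0.10 in KO mice (adjusted p = 0.667) and 0.27 in WT mice (adjusted p = 0.206). Orc6, a small subunit of the origin recognition complex, gave 0.18 in KO and 0.24 in WT mice, not called.

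Among the 4 clamp and clamp loader genes only Rfc5 in WT mice was called (over all genes, 18.4% in KO and 17.9% in WT mice). Pcna, the sliding clamp, was 1227 to 1764 (median 1645) in KO heme mice, against 1279 to 1682 (median 1404) in KO control mice. In WT heme mice it was 1369 to 2231 (median 1726), against 1703, 1416, 1464, 1444 and 1565 in WT control mice. The groups overlapped broadly, with log2 fold changes of 0.11 in KO mice (95% confidence interval -0.10 to 0.32, adjusted p = 0.457) and 0.21 in WT mice (-0.01 to 0.43, adjusted p = 0.147). A second probe set of Pcna gave 0.12 and 0.21. Rfc5, which helps to load the clamp, gave 0.33 in KO mice (adjusted p = 0.0394) and 0.48 in WT mice (adjusted p = 0.00577), and that call was lost without WT control replicate 1 or 2 or WT heme replicate 1, 3, 5 or 6 (highest adjusted p = 0.02427). The other loader subunits Rfc2 and Rfc3 gave 0.03 and 0.25 in KO mice and 0.20 and 0.34 in WT mice. A probe set shared by Rfc4 and Eif4a2 gave 0.48 in KO and 0.37 in WT mice, and none of these was called.

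Of the 7 primase and polymerase genes, 0 were called in KO mice (18.4% of all genes) and Pola2 and Pole2 in WT mice (17.9%). Pola2, the second subunit of the primase-coupled polymerase, gave 0.29 in KO mice (adjusted p = 0.0156) and 0.35 in WT mice (adjusted p = 0.00652). Pole2, the second subunit of the leading strand polymerase, gave 0.36 in KO mice (adjusted p = 0.0162) and 0.45 in WT mice (adjusted p = 0.0052). For Pola2 the KO heme mice (263 to 295) were all above the KO control mice (203 to 256), although the gene was not called there. Pold1, the catalytic subunit of the lagging strand polymerase, did not follow, with -0.11 in KO mice (adjusted p = 0.408) and 0.04 in WT mice (adjusted p = 0.814). The primase subunits Prim1 and Prim2 gave 0.33 and 0.39 in KO mice and 0.31 and 0.38 in WT mice. Pola1, the catalytic partner of Pola2, gave 0.10 in KO and 0.13 in WT mice, and Pole, the catalytic partner of Pole2, 0.38 in KO and 0.40 in WT mice. The WT call of Pola2 was lost without WT control replicate 1, 2 or 4 or WT heme replicate 1, 3 or 6 (highest adjusted p = 0.02364). That of Pole2 was lost without WT control replicate 1, 4 or 5 or WT heme replicate 1, 3, 5 or 6 (highest adjusted p = 0.0161).

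Fen1, which trims the flaps between lagging strand fragments, was called in WT mice alone, with 0.51 (SE 0.14, adjusted p = 0.00774) against 0.25 in KO mice (SE 0.13, adjusted p = 0.1804). That call was lost without WT control replicate 1, 2, 3 or 4 or WT heme replicate 1, 3, 5 or 6 (highest adjusted p = 0.0268), and also in a fit of all probe sets (adjusted p = 0.01274), and a second probe set near the signal minimum gave 0.10 in WT mice. Ligase Lig1, which seals the fragments, gave 0.32 in KO and 0.35 in WT mice, and Rpa2, which coats single strands, 0.24 in KO and 0.38 in WT mice, neither called.

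Of the 3 genes that work on chromatin behind the fork, Chaf1b was called in KO mice alone (over all genes, 18.4% in KO and 17.9% in WT mice). Chaf1b is a subunit of the factor that sets new histones on copied DNA, and its signal was 135 to 237 (median 166) in KO heme mice, against 103 to 155 (median 109) in KO control mice. In WT mice it was 119 to 252 (median 186) on heme, against 108, 113, 129, 132 and 156 on control. The difference was 0.57 in KO mice (SE 0.16, limma adjusted p = 0.00755) and 0.44 in WT mice (SE 0.16, adjusted p = 0.0482), and the KO call was lost without KO control replicate 1, 2, 4, 5 or 6 or KO heme replicate 1, 2, 4 or 5 (highest adjusted p = 0.02562). Chaf1a, its partner, gave 0.35 in KO and 0.46 in WT mice, and a brighter probe set shared with Ubxn6 gave 0.12 in KO and 0.04 in WT mice. Uhrf1, which passes DNA methylation on to the new strand, gave 0.36 in KO and 0.29 in WT mice. None of these was called.

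The G1/S regulators were mixed. E2f8, an E2F that represses transcription late in S phase, was 229.7 to 384 (median 293) in KO heme mice, against 155 to 240.1 (median 187) in KO control mice. The WT heme mice ranged from 226 to 464 (median 337.5), against 194, 176, 225, 217 and 217 in WT control mice. It was called in both genotypes, with 0.63 in KO mice (SE 0.15, limma adjusted p = 0.00196) and 0.72 in WT mice (SE 0.15, adjusted p = 0.00105). E2f1, an activator of the same family, was not called, with 0.28 in KO mice (adjusted p = 0.1199) and 0.18 in WT mice (adjusted p = 0.378). Cdk2, the kinase of S phase entry, gave 0.11 in KO and 0.23 in WT mice, not called.

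Ccne1 encodes cyclin E1, which drives Cdk2 at the start of S phase. It was 105 to 185 (median 142) in KO heme mice, against 80.3 to 132 (median 101) in KO control mice. WT heme mice had 98.15 to 237 (median 176), against 90.3, 89.8, 96.4, 91.8 and 107.5 in WT control mice. Ccne1 gave 0.48 in KO mice (SE 0.18, adjusted p = 0.0477) and 0.71 in WT mice (SE 0.19, adjusted p = 0.00582), where the call was lost without WT control replicate 1, 2, 3 or 4 or WT heme replicate 1, 3, 5 or 6 (highest adjusted p = 0.0176). Its relative cyclin E2 was seen through a probe set shared by Ccne2 and Ints8, which gave 0.26 in KO mice and 0.65 in WT mice and was called in WT mice.

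Ccnd1 encodes cyclin D1, which acts earlier in G1, and was the only replication gene with a negative value in WT mice. It was 692 to 836 (median 763.5) in KO heme mice, against 716.5 to 819.9 (median 757) in KO control mice. In WT heme mice it was 547 to 772 (median 590.1), against 705, 682, 689, 795.5 and 773.5 in WT control mice, with 4 of 6 WT heme mice below all WT control mice. The log2 fold change was -0.0009 in KO mice (adjusted p = 0.995) and -0.21 in WT mice (95% confidence interval -0.37 to -0.04, adjusted p = 0.0602), neither called. A dimmer probe set shared with LTO1 gave 0.17 in KO and 0.16 in WT mice. Of the repair genes that act with replication, Brca1 was called in WT mice (0.53, adjusted p = 0.00247, or 0.01021 without WT control replicate 2) and gave 0.36 in KO mice (adjusted p = 0.0279). Exo1, a nuclease of mismatch repair, gave 0.40 in KO mice (adjusted p = 0.0503) and 0.53 in WT mice (adjusted p = 0.0137), and Ung, which removes uracil from DNA, gave 0.07 in KO mice and 0.00 in WT mice.

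The mice of a heme group were not alike in these genes. The median log2 difference of the 44 genes from the WT control mean was 0.00 to 0.52 in KO heme mice, -0.21 to 0.19 in KO control mice, -0.04 to 0.79 in WT heme mice and -0.09 to 0.11 in WT control mice. Heme and control mice therefore overlapped in both genotypes. The lowest heme mice were KO heme replicate 3 (0.00) and WT heme replicate 4 (-0.04), and the highest KO control mouse was replicate 3 (0.19). The standard deviation of log2 signal within a group, taken as the median over the 44 genes, was 0.22 in KO heme, 0.17 in KO control, 0.30 in WT heme and 0.12 in WT control mice, against 0.11 to 0.13 over all genes. For the G2 and M phase genes described further down it was 0.25, 0.26, 0.25 and 0.22 in the same groups, so a spread above that of all genes was not particular to replication genes. These 3 arrays correlated with the others of their group over all genes as the rest did (mean r = 0.995 for each, range over the 23 arrays 0.991 to 0.996).

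**Figure D3:**
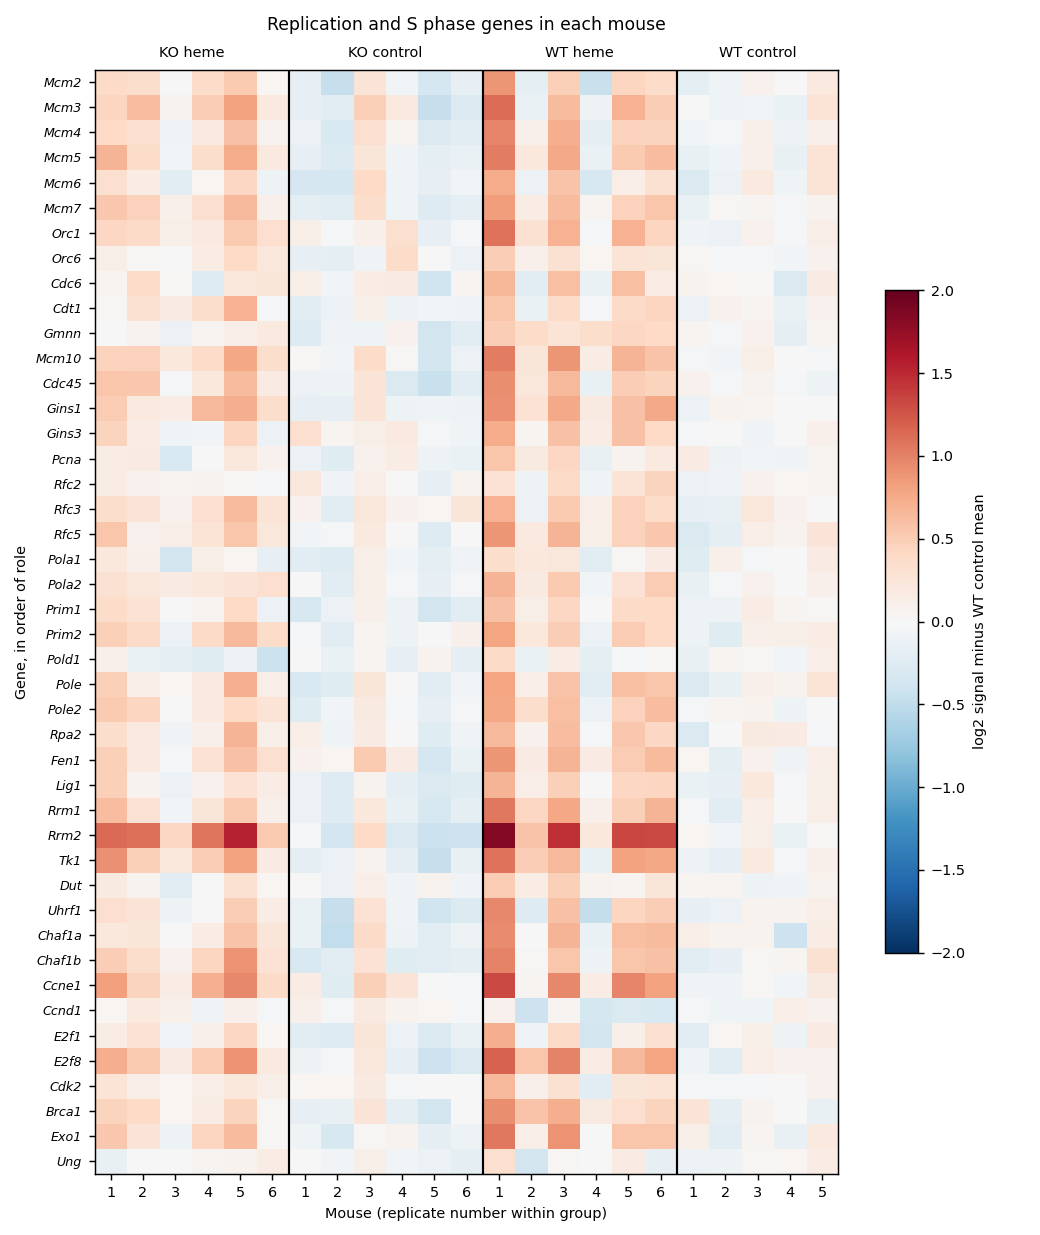
Log2 signal of each of the 44 genes in each mouse minus the WT control mean, red for higher and blue for lower, with the groups in the order KO heme, KO control, WT heme and WT control. Columns are mostly of a single colour, with WT heme replicate 1 the reddest (median 0.79) and WT heme replicate 4 close to the control mice (median -0.04).

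Genes of the phases after S were set beside them. Of 42 measured genes of G2 and M phase, 39 were called higher in KO mice and 41 in WT mice, with medians of 0.70 and 0.80. They include the mitotic motor and spindle genes Hmmr (0.91 in KO, 1.09 in WT mice) and Kif4 (1.06 and 0.92), the mitotic kinase Plk1 (0.86 and 1.02) and the centromere histone Cenpa (0.82 and 1.01). In 35 of the 42 all KO heme mice were above all KO control mice, and in 31 all WT heme mice were above all WT control mice. For the replication genes these numbers were 3 and 6 of 44, and over all genes 7.3% and 8.21%. The standard errors were of like size, with a median of 0.12 in KO and 0.13 in WT mice for replication genes and 0.14 in both for G2 and M phase genes. The difference between the lists was not tested.

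In each mouse the 2 groups of genes can be set side by side. The median G2 and M phase difference from the WT control mean was 0.32 to 0.87 in KO heme mice, against -0.52 to 0.15 in KO control mice, and 0.40 to 1.098 in WT heme mice, against -0.21 to 0.28 in WT control mice. Heme and control mice did not overlap here. WT heme replicate 4, with its replication genes at the level of the control mice, had a G2 and M phase median of 0.40, and KO heme replicate 3 had 0.32. Within groups, the median correlation over pairs of genes across the 23 arrays was 0.74 among replication genes, 0.85 among G2 and M phase genes and 0.60 between the lists. These genes come from the same libraries, so the correlations describe them only.

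**Figure D4:**
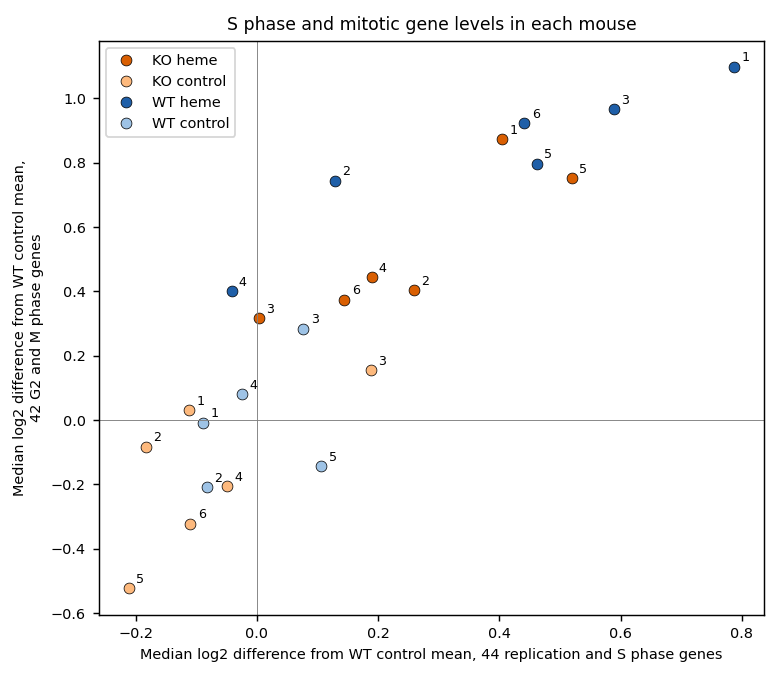
Median log2 difference from the WT control mean in each mouse, for 44 replication genes on the x axis and 42 G2 and M phase genes on the y axis, with replicate numbers beside the points. Heme mice start at 0.32 on the y axis and control mice end at 0.28, whereas on the x axis the heme mice reach down to -0.04 and the control mice up to 0.19.

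Genes of the same processes outside the list were less uniform in direction, and some were called lower. In either direction, 28.2% of other replication fork and origin genes were called in KO mice and 46.2% in WT mice. For other nucleotide supply genes the shares were 22.2% and 27.8%, and for other G1/S genes 37.9% and 34.5%. Over all genes they were 18.4% and 17.9%. Of 39 other replication fork and origin genes, 11 were called higher and 0 lower in KO mice, and 17 higher and 1 lower in WT mice. Among them were Dbf4, the activator of the Cdc7 kinase (0.66 in KO, 0.84 in WT mice), the histone chaperone Asf1b (0.69 and 0.81), the initiation factor Ticrr (0.73 and 0.74) and topoisomerase Top2a (0.46 and 0.67). Of 18 other nucleotide supply genes, 4 were called higher and 0 lower in KO mice, and 3 higher and 2 lower in WT mice. Nme1, a nucleoside diphosphate kinase, gave 0.64 and 0.75, while Samhd1, which breaks deoxynucleotides down, gave -0.48 in KO mice (not called) and -0.65 in WT mice (called).

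Of 29 other G1/S genes, 7 were called higher and 4 lower in KO mice, and 7 higher and 3 lower in WT mice. E2f2, an activating E2F, had the largest value of these (1.26 in KO, 1.45 in WT mice), followed by Cks1b, a partner of cyclin-dependent kinases (1.08 and 1.01), and cyclin A2, Ccna2 (0.81 and 0.93). Cdk6, the kinase partner of cyclin D, was called lower in both genotypes (-0.77 and -0.67). Mki67, which marks cycling cells, was higher by 0.62 in KO mice (limma adjusted p = 0.000189) and by 0.59 in WT mice (adjusted p = 0.000494). Of 10 genes of stem cells and the crypt base, 7 were called lower in KO mice and 4 in WT mice, and 0 were called higher.

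The octamers shown above were less frequent in windows of called genes than in windows of genes called in neither genotype. Of 14 genes with a window that were called in KO or WT mice, 3 (21.4%) held an E2F-type octamer, and of 22 called in neither 12 (54.5%) did. G2 and M phase genes held one in 3 of 40 windows (7.5%). CCAAT or ATTGG was found in 57.9% of replication gene windows, 77.5% of G2 and M phase windows and 41.1% of all windows. These shares are descriptions of small numbers, without a test.

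The knockout was compared with WT on each diet. On heme, 0 of 44 replication genes were called between KO and WT mice in limma (0.234% of all genes were called), and 41 of 44 were lower in KO mice, with a median of -0.15 against -0.01 over all genes, of which 52.3% were lower. The 44 genes varied together within groups (median correlation 0.74), so such counts of direction are not counts of independent genes. Their medians in single mice overlapped between genotypes on heme (0.00 to 0.52 in KO and -0.04 to 0.79 in WT mice). At an unadjusted p under 0.05, 7 genes passed, against 12.2% of all genes. The ordinary two-way model on linear signal called 1, Gmnn (0.25% of all genes). On the control diet 0 were called (0.0531% of all genes), 35 of 44 were lower in KO mice (50.1% of all genes), the median was -0.07 against -0.0001 over all genes, and 1 passed at an unadjusted p under 0.05 (5.74% of all genes). The ordinary two-way model called 0 there on either scale. Some other lists also lay mostly to one side, and others did not. On heme, 42 of 42 G2 and M phase genes were lower in KO mice (median -0.26, 0 called in limma, 18 at an unadjusted p under 0.05). Of the 7 myeloid markers all were higher in KO heme mice (median 0.27), of which 1, Cd14, was called (0.61, limma adjusted p = 0.006734), and 6 of 7 B cell markers were higher (median 0.32, 0 called in limma, 1 at an unadjusted p under 0.05). KO heme replicate 1 had the highest summed signal of both lists, 2225 for B cells and 3000 for myeloid cells. The other KO heme mice had 399.5 to 928 and 1175 to 2111, and WT heme mice 507.8 to 793.4 and 1273 to 1564. Of 10 epithelial markers 5 were higher in KO heme mice, and of 10 genes of stem cells and the crypt base 6 were. On the control diet all 14 smooth muscle genes were lower in KO mice (median -0.61, 0 called in limma, 12 at an unadjusted p under 0.05). Their summed signal was 16560 and 20840 in WT control replicates 1 and 2. In WT control replicates 3, 4 and 5 it was 8721, 7407 and 8070, within the range of KO control mice (4125 to 10440). Also lower in KO control mice were 40 of 42 G2 and M phase genes (median -0.17, 0 called), while all 7 B cell and all 7 myeloid markers were higher (0 called). The part of these lists in the replication gene values was not tested.

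Gmnn came closest, with 38.8 to 48.1 in KO heme mice, against 50.6 to 59.1 in WT heme mice. All KO heme mice lay below all WT heme mice, as in 0.452% of all genes, and the log2 difference was -0.32 (SE 0.07, limma adjusted p = 0.0206). The exact permutation test, two-sided, gave p = 0.002165, the smallest that 6 against 6 mice allow. A second probe set of Gmnn, with mean signals of 13.6 in KO and 13.7 in WT heme mice, lay under the signal minimum of 20. Ccnd1 was higher in KO heme mice than in WT heme mice, by 0.26 (95% confidence interval 0.10 to 0.42, adjusted p = 0.127).

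The heme response of KO mice minus that of WT mice was tested directly. In limma, 0 of 44 genes were called (0.0106% of all genes were called), and the smallest adjusted p was 0.687, for Gins3. Its difference between responses was -0.39 (95% confidence interval -0.73 to -0.04), and it was the only replication gene with an unadjusted p under 0.05 (6.75% of all genes). The log2 response was lower in KO mice for 30 genes (52.0% of all genes) and higher for 14, with a median difference of -0.08. That median rested on single mice, since it was -0.0011 without WT heme replicate 1 and -0.16 without WT heme replicate 4. It was -0.0395 without WT heme replicate 3, -0.0547 without WT control replicate 4, -0.0194 without KO control replicate 3 and -0.029 without KO heme replicate 3. For Rrm2 the difference was 0.04 with a 95% confidence interval of -0.63 to 0.70, for Mcm7 0.02 (-0.35 to 0.39), for Gmnn -0.17 (-0.37 to 0.03) and for Ccne1 -0.24 (-0.77 to 0.30).

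Markers of other cells in the scrapings moved with the groups as well. Of 14 smooth muscle genes, 1 was called lower on heme in KO mice and 11 in WT mice, and 0 were higher. Their summed signal was 3887 to 6821 in KO heme mice, 4125 to 10440 in KO control mice, 4294 to 6639 in WT heme mice and 7407 to 20840 in WT control mice. The WT control mice were uneven, with 16560 and 20840 in replicates 1 and 2 and 8721, 7407 and 8070 in replicates 3, 4 and 5. The part of smooth muscle in the replication gene results was not tested. Within groups the median correlation of replication genes with smooth muscle genes was 0.015. That value is taken after group means are removed, so it cannot speak to differences between groups. Of 7 B cell genes and 7 T cell genes, 0 were called on heme in either genotype (limma; at an unadjusted p under 0.05, 0 B cell genes in both, and 1 T cell gene in KO and 2 in WT mice). Of 7 myeloid genes 1 was called higher and 1 lower in KO mice and 1 lower in WT mice, and of 6 fibroblast and 5 endothelial genes 0 were called (limma; at an unadjusted p under 0.05, 2 fibroblast genes in each genotype and 1 endothelial gene in KO mice). Epithelial markers were measured for 10 of 11 genes, with a summed signal of 47560 to 52480 over all mice, but single markers moved with diet. Krt20, a keratin of differentiated surface cells, and the brush border gene Vil1 were called higher on heme in both genotypes (0.47 and 0.29 in KO mice, 0.50 and 0.32 in WT mice). The adhesion genes Epcam and Cdh1 were called lower in both (-0.24 and -0.19 in KO mice, -0.18 and -0.17 in WT mice), and the mucin Muc2 in KO mice alone (-0.17, against -0.12 in WT mice).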

How the data were processed

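Colon RNA of 23 mice was hybridised by the authors to 1 array each, and the deposited data hold a log2 value for each probe set, normalised together by Robust Multi-array Average (version not given in the sources used here). These values were used as given, all 23 columns matched a sample, and 0 were left unmatched. Arrays have no read depth, and their number limits the precision. Gene names are those of the platform annotation, brought up to date by Entrez number (21185 of 21218 probe sets with 1 symbol matched in the RefSeq table of GRCm38.p6), and for 1386 genes with several probe sets the brightest was used. The methods of the study describe reorganised probe sets, so probes can differ from those used there.

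limma 3.58.1 in R 4.3.3 fitted 4 group means to all arrays, with moderated variances and Benjamini-Hochberg adjustment over 18820 genes. Single genes were compared by exact permutation tests in Python 3.11.15 (with numpy 2.4.6, pandas 2.3.3 and scipy 1.17.1), and figures were drawn with matplotlib 3.10.9. Members and gene lists were chosen with earlier results of these data known. All members are named, of other lists up to 4 called genes with the largest change, and of cell markers the summaries. On simulated data with 200 changed genes among 18820, a heme effect of 0.5 in WT mice was recovered for 74.8% of genes and an interaction of 0.5 for 48.3%, with 1.2 and 1.7 false calls on average. The changed genes were drawn from all genes with a signal above 20, with independent noise. Replication genes had larger standard errors, with medians of 0.13 (heme in WT mice) and 0.18 (interaction), against 0.08 and 0.11 over all genes. The recovered shares therefore do not hold for replication genes, for which recovery was not simulated. Alternatives were centred arrays, fits of only the groups compared, array weights, other variance models, linear signal, other signal filters, an adjusted p under 0.05, an estimated null share, other choices of probe set, the replicate number as a block, and each array left out in turn.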

Additional observations from a re-analysis of the deposited data

Results flagged for a closer look

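Of 180 combinations of a gene and a group, 11 (6.11%) had a mouse that stood apart from the others of its group by Dixon's test at the 95% level, which by chance flags about 1 in 20. In KO control mice the highest value was that of replicate 3 for Mcm5 (297.8, next 238.9), Mcm6 (392.0, next 286.7), Mcm7 (467.0, next 344.0), Gins1 (46.8, next 36.69), Rrm1 (504.2, next 404.0), Chaf1b (155.4, next 110.8), E2f1 (126.2, next 98.33) and Cdk2 (226.1, next 205.1). These 8 genes were thus apart in the same mouse, whose median over the 44 genes (0.19) was the highest of the KO control mice. Orc6 was highest in KO control replicate 4 (160.0, next 123.5). In WT control mice Chaf1a was lowest in replicate 4 (63.67, next 88.75) and Cdk2 highest in replicate 5 (211.2, next 197.4).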

How the results depend on the processing

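The count of replication genes called changed with the test. Their median log2 fold change was 0.29 to 0.38 in KO mice and 0.32 to 0.48 in WT mice with each array left out, and 0.33 to 0.38 and 0.38 to 0.45 under the other alternatives. That of the difference between responses was -0.16 to -0.0011 with each array left out, against -0.08 with all arrays. In KO mice, against 7 genes, 12 were called after centring arrays on their median, 14 with array weights, 4 in the ordinary two-way model, 0 in that model on linear signal, 21 at an adjusted p under 0.05 and 12 with an estimated null share. In the same order, 16.9%, 21.4%, 17.6%, 16.7%, 27.8% and 22% of all genes were called in either direction, against 18.4%. In WT mice, against 14, 8 were called when only the WT arrays were fitted, 26 with array weights, 9 in the ordinary two-way model, 8 on linear signal and 29 at an adjusted p under 0.05. Over all genes these shares were 13.3%, 22.3%, 17.1%, 16.4% and 27.1%, against 17.9%. A fit of all probe sets called 5 in KO mice, without Mcm10 and Chaf1b, and 11 in WT mice, without Pola2, Fen1 and Tk1. That fit called 16.6% of all genes in KO mice and 15.8% in WT mice. With each array left out the counts were 4 to 13 in KO mice and 6 to 27 in WT mice. The shares of all genes were 14.7% to 19.2% and 13.7% to 19.1%. KO against WT on heme gave 1 gene, Gmnn, on linear signal (0.25% of all genes) and 1, the same gene, at an adjusted p under 0.05 (0.786%). The other comparisons of KO with WT, and the difference between responses, gave 0 genes under all alternatives run.

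With the replicate number as a replicate block, 7 genes were called in KO mice and 15 in WT mice (18.6% and 17.2% of all genes). In KO mice Mcm10 was lost (adjusted p = 0.01078) and Cdc45 gained (0.009988), and in WT mice Fen1 was lost (0.01065) and Gins3 and Exo1 gained (0.003887 and 0.009732). Equal numbers do not mark shared mice here, since each mouse was in 1 group. Of 33 same-numbered pairs, 19 had a correlation of their deviations at or under 0.1 (range -0.32 to 0.34, mean 0.05). Of 165 pairs with unequal numbers, 122 did (range -0.52 to 0.45, mean -0.01). Whether equal numbers share some other factor was not tested.

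Genes with values near 0 changed sign in places. With each array left out, Ccnd1 in KO mice ran from -0.0298 to 0.0248, Gins3 in KO mice from -0.0303 to 0.0818, Rfc2 in KO mice from -0.0138 to 0.0654, Pold1 in WT mice from -0.0311 to 0.0815 and Ung in WT mice from -0.0654 to 0.0743. Ccnd1 in KO mice also turned to 0.0431 with centred arrays, 0.0187 with array weights and 4e-04 on linear signal, and Ung in WT mice to -0.0024 with array weights. The cause was not tested.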
